A study of Mus musculus with 2 samples.

Results

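The oxygen sensing genes and erythropoietin were 10 of the 43346 genes in the deposited tables: the hypoxia inducible factor (HIF) subunit genes Hif1a, Epas1, Hif3a and Arnt, the prolyl hydroxylase genes Egln1, Egln2 and Egln3, the ubiquitin ligase gene Vhl, and the hormone genes Epo and Adm. They were taken by name, through the match of gene identifiers to GENCODE symbols. No level was used as a filter, but these genes and the lists below were chosen with earlier results of these data known. All 10 were found in both libraries, and 9 were detected, that is, reached 1 TPM or more in both. Erythropoietin (Epo) was the exception, with 1.02 expected counts in replicate 1 and 0 in replicate 2.

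Total RNA was sequenced from kidneys of mouse embryos of strain B6NCrl at 14.5 days, untreated as far as the labels say, with 2 kidneys and 10 ng of RNA longer than 200 nt in each of 2 libraries. The libraries are numbered biological replicates 1 and 2 of 1 group and come from different collection days, which therefore cannot be told apart from the replicates, and no other genotype, treatment or age was included. The labels also give both libraries the same donor identifier, so how far the 2 are independent is not settled by them. They describe the kidneys of each library as those of a single pup and, in another field, as a pool of males and females. Depth was 29718428 expected counts (estimated reads per feature) in replicate 1 and 29204212 in replicate 2, and spike-in RNAs took 4.34% and 4.95% of them. Levels are in TPM, a measure per transcript length scaled to a fixed sum in each library, given for replicate 1 first and replicate 2 second, and then as mean ± SD (n = 2). Gene positions are on mm10. With 1 group there is no test between groups, and the spread between these 2 libraries, which may be partly technical, is the only error. All 14 markers of kidney development that were looked up were detected, against 59.0% of protein-coding genes. Among them were Tcf21 at 259 and 289 TPM and Calb1 at 164 and 168 TPM. The lowest was Nphs1, at 2.65 and 2.57 TPM. In whole tissue, fewer cells of a type and less RNA per cell cannot be told apart.

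HIF is a pair of an oxygen-regulated alpha subunit and the constant partner ARNT, and it binds DNA at a short core sequence near the genes it activates. When oxygen is present, EGLN enzymes hydroxylate prolines of the alpha subunits, the VHL protein recognises the hydroxylated form, and the subunit is ubiquitinated and destroyed, so HIF activity is set largely at the protein level and is not read directly from RNA. In the adult kidney, interstitial cells release erythropoietin under HIF control and it drives red cell production in the marrow, while in the fetus the liver is the main source.

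The HIF core sequence is shown in the promoters of 5 of these genes, 250 bases before to 50 after the RefSeq start on GRCm38.p6, 5′ to 3′ on the strand of the gene. Hif1a and Egln2 were chosen as the highest genes of the subunits and hydroxylases, Egln3 and Adm as genes that HIF is known to activate, and Epo as the gene that was almost without reads. Capitals mark every match to ACGTG or GCGTG on either strand (CACGT and CACGC where the match is on the other strand), and overlapping matches run together.
Hif1a promoter, chr12:73907617-73907916, plus strand: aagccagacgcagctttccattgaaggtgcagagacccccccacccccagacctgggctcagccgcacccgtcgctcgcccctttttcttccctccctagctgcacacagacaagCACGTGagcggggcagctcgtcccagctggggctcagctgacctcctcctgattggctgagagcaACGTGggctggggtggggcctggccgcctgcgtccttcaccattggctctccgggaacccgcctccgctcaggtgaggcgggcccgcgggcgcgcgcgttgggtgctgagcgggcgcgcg
Egln2 promoter, chr7:27166753-27167052, minus strand: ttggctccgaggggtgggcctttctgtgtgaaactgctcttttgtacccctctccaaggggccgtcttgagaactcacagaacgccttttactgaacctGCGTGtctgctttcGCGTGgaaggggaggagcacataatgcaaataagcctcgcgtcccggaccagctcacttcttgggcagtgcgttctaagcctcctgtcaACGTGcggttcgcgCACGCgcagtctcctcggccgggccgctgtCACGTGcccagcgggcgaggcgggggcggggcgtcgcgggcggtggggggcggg
Egln3 promoter, chr12:54203825-54204124, minus strand: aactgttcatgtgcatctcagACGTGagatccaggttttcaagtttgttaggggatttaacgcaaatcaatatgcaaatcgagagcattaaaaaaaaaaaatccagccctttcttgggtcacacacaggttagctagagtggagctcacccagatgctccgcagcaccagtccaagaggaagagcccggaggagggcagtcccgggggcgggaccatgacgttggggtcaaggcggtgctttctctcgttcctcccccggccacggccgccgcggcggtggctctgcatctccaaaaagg
Adm promoter, chr7:110627407-110627706, plus strand: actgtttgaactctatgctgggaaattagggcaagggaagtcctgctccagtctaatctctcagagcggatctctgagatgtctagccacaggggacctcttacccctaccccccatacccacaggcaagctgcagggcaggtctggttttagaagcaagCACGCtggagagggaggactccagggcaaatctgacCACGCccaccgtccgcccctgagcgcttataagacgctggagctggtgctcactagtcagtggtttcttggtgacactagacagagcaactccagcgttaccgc
Epo promoter, chr5:137485767-137486066, minus strand: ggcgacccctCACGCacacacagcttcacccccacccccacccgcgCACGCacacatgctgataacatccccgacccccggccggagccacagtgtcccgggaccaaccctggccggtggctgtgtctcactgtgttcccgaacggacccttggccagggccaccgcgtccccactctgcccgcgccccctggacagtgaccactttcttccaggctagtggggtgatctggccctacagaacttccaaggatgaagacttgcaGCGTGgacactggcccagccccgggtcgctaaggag

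RefSeq entries matched 10 promoters of 9 of these genes, since Egln2 has 2. Of the 10, 9 held at least 1 match, against 43.8% of the 32851 promoters in the table. Egln2 had 6 matched positions at its first promoter, a number of 5 or more being found in 1.66% of all promoters, while its second promoter had 1. Hif1a and Epo had 3 each, against 8.93% of all promoters with 3 or more. In Hif1a, 2 of the 3 lie over each other in the palindrome CACGTG, 135 bases before the start. At the first Egln2 promoter, 2 of the 6 likewise share a CACGTG, 4 bases before the start. Adm had 2 and Egln3 had 1, and among the genes not printed Hif3a and Egln1 had 2, Arnt had 1 and Vhl had none. Both motifs hold a CpG, and 9 of the 10 promoters were above the median of all promoters in G and C content and 9 in CpG count. The share of matches was not set against promoters of like composition. The Egln1 promoter was 86.0% G or C with 60 CpG, against medians of 52.7% and 7 over all promoters. A match describes the letters of this window and no binding was measured.

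Hif1a (ENSMUSG00000021109.9, chr12:73901375-73947530, plus strand), which encodes the alpha subunit found in most tissues, was by far the most abundant of the set. It had 89.8 TPM in replicate 1 and 48.75 TPM in replicate 2 (69.3 ± 29.0), from 7367 and 4283 expected counts. Among detected protein-coding genes, whose median level was 18.3 TPM, these values stood at the 86.7 and 78.7 percentiles. Hif3a (ENSMUSG00000004328.11, chr7:17031507-17062427, minus strand), whose products include short forms that oppose HIF activity, had 15.04 and 10.23 TPM (12.6 ± 3.40). Epas1 (ENSMUSG00000024140.9, chr17:86753700-86833410, plus strand), which encodes HIF-2 alpha, the subunit that in adult kidney interstitium controls Epo, had 10.12 and 6.44 TPM (8.28 ± 2.60). The order Hif1a, Hif3a, Epas1 was the same in both libraries, and the lower Hif1a value was above every value of the other alpha subunits. The ranges of Hif3a and Epas1 did not overlap, though only just, with 10.23 TPM as the lower value of Hif3a and 10.12 TPM as the higher one of Epas1. Within a library, Hif1a exceeded Epas1 by 8.87-fold and 7.57-fold (8.22 ± 0.922), and Hif3a exceeded Epas1 by 1.49-fold and 1.59-fold. Of the summed TPM of the alpha subunits, Hif1a thus made up 76.3% ± 2.54, Hif3a 14.4% ± 1.81 and Epas1 9.32% ± 0.736 (SD, n = 2).

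Arnt (ENSMUSG00000015522.14, chr3:95434388-95497240, plus strand), the partner that all alpha subunits share, had 27.62 TPM in replicate 1 and 11.6 TPM in replicate 2 (19.6 ± 11.3), the widest spread of the set relative to its mean among the detected genes. These levels rest on 1920 and 808 counts. Hif1a exceeded Arnt in both libraries, by 3.25-fold and 4.20-fold, and the summed alpha subunits exceeded it by 4.16-fold and 5.64-fold. Arnt2, a related partner gene best known from the nervous system, was lower, at 7.95 and 4.48 TPM, so that Arnt exceeded it by 3.47-fold and 2.59-fold. The partner genes therefore kept the same order in both libraries despite the spread of Arnt itself.

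The 3 prolyl hydroxylase genes were all detected. On the TPM scale, their levels in the libraries lay within 1.20-fold of each other, against 1.47-fold to 2.38-fold for the HIF subunit genes. This contrast depends on scaling and length. With TMM-scaled counts, log2 differences were -0.26, -0.02 and -0.13 for Egln1, Egln2 and Egln3. Those of Hif1a, Epas1, Hif3a and Arnt were 0.67, 0.33, 0.26 and 1.11. From the TPM median of their length range, Egln genes differed by -0.46, -0.09 and -0.18. The subunit genes differed by 0.30, 0.06, -0.01 and 0.68. Egln2 (ENSMUSG00000058709.7, chr7:27158658-27166802, minus strand) had 29.77 and 24.82 TPM (27.3 ± 3.50). Egln1 (ENSMUSG00000031987.5, chr8:124908587-124949324, minus strand) had 12.71 and 12.27 TPM (12.5 ± 0.311). Egln3 (ENSMUSG00000035105.5, chr12:54178981-54203860, minus strand) had 11.4 and 10.1 TPM (10.8 ± 0.919). Egln1 encodes the main oxygen-dependent brake on HIF in most mouse tissues, Egln2 a constitutive enzyme, and Egln3 an enzyme whose gene is itself a HIF target. Per length, Egln2 was the highest in both libraries and supplied 53.9% ± 1.88 of the summed TPM of the family, against 24.8% ± 1.71 for Egln1 and 21.3% ± 0.173 for Egln3 (SD, n = 2). The values of Egln1 lay above those of Egln3 without overlap, by 1.11-fold and 1.21-fold within the libraries. The deposited credibility intervals of the 2 genes overlapped in replicate 1, at 11.5 to 13.2 and 10.2 to 12.0 TPM, but not in replicate 2. The summed alpha subunit TPM exceeded the summed Egln TPM by 2.13-fold in replicate 1 and 1.39-fold in replicate 2. Hif1an, which encodes the asparagine hydroxylase that blocks the transactivation domain of HIF alpha, had 21.8 and 15.2 TPM.

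Vhl (ENSMUSG00000033933.9, chr6:113623959-113631633, plus strand), which encodes the substrate receptor of the ligase, had 32.06 TPM in replicate 1 and 19.39 TPM in replicate 2 (25.7 ± 8.96). Its scaffold gene Cul2 was at 61.9 and 33.7 TPM, 1.93-fold and 1.74-fold above Vhl. The small subunits of the complex were far higher, Elob at 695 and 964 TPM, Eloc at 233 and 283 TPM and Rbx1 at 214 and 240 TPM. These encode proteins that serve several ligases besides that of VHL. The small-subunit genes were higher in replicate 2, whereas Vhl and Cul2 were higher in replicate 1, so the ratio of Elob to Vhl was 21.7 in replicate 1 and 49.7 in replicate 2. Elob, Eloc and Rbx1 are shorter, at 508, 875 and 1655 nt, than Vhl at 2792 nt and Cul2 at 2894 nt. Over all genes, the difference between libraries moved with transcript length, as given below. The part of length in this ratio was not tested.

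**Figure D1:**
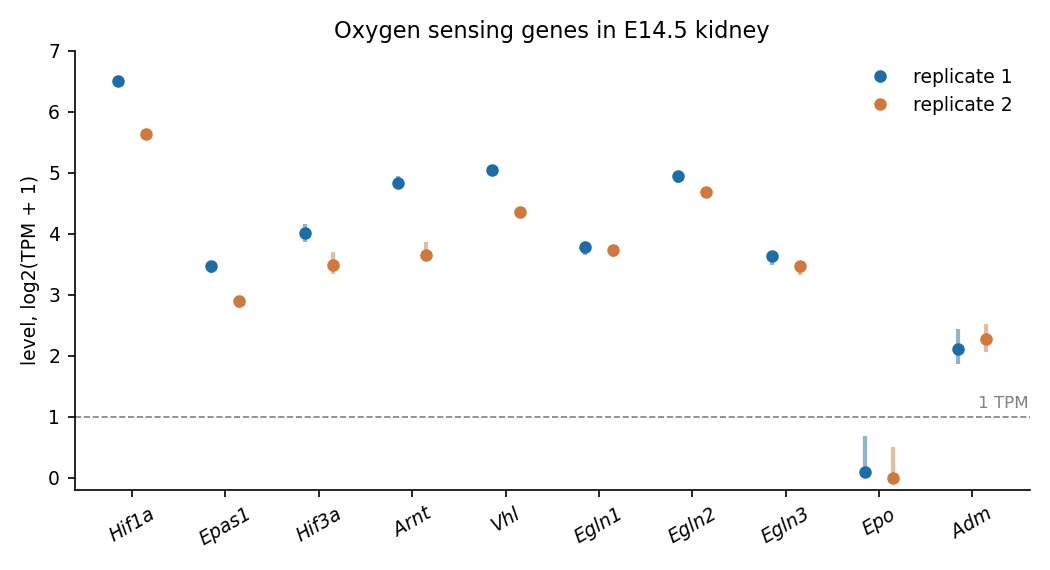
Levels of the 10 oxygen sensing genes in the embryonic day 14.5 kidney, as log2(TPM + 1), with replicate 1 and replicate 2 as separate points and the deposited credibility interval of each estimate as a bar. Hif1a stands above all others in both libraries, Adm lies near the low end of the detected genes, and Epo lies under the dashed line at 1 TPM.

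In the order of mean level, Hif1a was followed by Egln2, Vhl, Arnt, Hif3a, Egln1, Egln3, Epas1, Adm and Epo. Neighbours in this order had ranges that did not overlap for Hif1a and Egln2, Egln1 and Egln3, Epas1 and Adm, and Adm and Epo. The ranges of the other neighbours overlapped. Of these, Vhl lay above Arnt, Arnt above Hif3a and Egln3 above Epas1 in both libraries, while Egln2 and Vhl, and Hif3a and Egln1, changed places between them.

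Epo (ENSMUSG00000029711.9, chr5:137483020-137533242, minus strand) had 0.07 TPM in replicate 1 and 0 TPM in replicate 2. Both values are under the level that 3 counts would have given, 0.203 and 0.202 TPM, which is taken as the limit that a count of 0 allows and covers counting error only. The upper end of the 2-sided 95% Poisson interval, a wider bound than 3 counts, corresponds to 0.378 TPM in replicate 1 and 0.248 TPM in replicate 2. The deposited posterior mean estimates were higher than the TPM values, at 0.30 and 0.20 TPM with interval bounds up to 0.597 and 0.422 TPM. These too are under 1 TPM. The single count of replicate 1 was assigned to Epo-202, a transcript with a first exon of 104 nt at chr5:137533139-137533242, 47426 nt upstream of the start of Epo-201. The exon lies wholly within an exon of Gnb2, a G protein subunit gene on the same strand with 338 and 329 TPM. Epo and Gnb2 held 1.02 and 4815.98 counts in replicate 1 and 0 and 5614 in replicate 2, and the sums of 4817 and 5614 are whole, as for reads divided between the genes. Epo-201 and Epo-203, whose start is the one printed above, had 0 counts in both libraries. No read was assigned to a transcript beginning at that promoter, so Epo was not detectable at this depth.

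Of 14 genes that act around erythropoietin, 13 were detected, against 59.0% of the 21474 protein-coding genes, and their median level of 10.7 TPM was under the 18.3 TPM of detected protein-coding genes. The receptor gene Epor had 6.72 and 6.6 TPM, and Jak2, the kinase bound to the receptor, had 12.2 and 6.02 TPM. The signal carriers Stat5b and Stat5a had 15.2 and 9.46 TPM and 2.33 and 1.49 TPM. The feedback genes Sh2b3, Socs2 and Cish ranged from 6.13 to 18.1 TPM. All of them were above the detection level in both libraries, but Epor, Jak2 and the others also act in blood and endothelial cells. Haemoglobin RNA was abundant, with Hba-a1 at 2099 and 1760 TPM and Hbb-bt at 2063 and 1675 TPM, while the erythroid regulator genes Gata1 and Klf1 had 0.38 and 0.4 TPM and 0.93 and 1.24 TPM. The part of blood cells in the levels of these genes was not tested.

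Among the GATA factors known to act on Epo, RNA of the members that repress it was detected and that of the liver activator was not. Which cells held these RNAs, and whether they bear on the level of Epo here, was not tested. Gata3 had 68.7 and 44.6 TPM and Gata2 had 22.2 and 13.6 TPM, whereas Gata4, which activates it in fetal liver, had 0.03 and 0.04 TPM. Hnf4a, which acts with HIF at the liver enhancer of Epo, had 8.43 and 4.53 TPM, and the nuclear receptor gene Nr2f2 had 170 and 155 TPM. Kitl and its receptor gene Kit, which support erythroid progenitors, had 26.8 and 12.4 TPM and 11.9 and 4.86 TPM. For the liver, the other fetal source of Epo, 6 of 10 markers were detected, against 59.0% of protein-coding genes, the list summed to 51.0 and 35.3 TPM, and Alb had 1.34 and 1.05 TPM. Afp, at 21.95 and 12.96 TPM, and Trf, at 14.4 and 10 TPM, made up most of that sum. Markers of interstitial and mural cells, the lineage of adult Epo-producing cells, were detected for 8 of 9 genes, against 59.0% of protein-coding genes. The list summed to 299 and 169 TPM. Its largest parts were Acta2, at 98.1 and 55.1 TPM, and the renin gene Ren1, at 72.46 and 37.65 TPM. Pdgfrb had 32.8 and 17.8 TPM, and Nt5e, which marks adult cortical interstitium, 1.33 and 0.13 TPM.

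Adm (ENSMUSG00000030790.10, chr7:110627661-110629820, plus strand) encodes adrenomedullin, a vasodilator and endothelial growth signal whose gene is a HIF target. It had 3.32 TPM in replicate 1 and 3.81 TPM in replicate 2 (3.57 ± 0.346), from 79 and 110 counts. These values stood at the 10.3 and 16.6 percentiles of detected protein-coding genes. It was the one detected gene of the set with the higher value in replicate 2, and the deposited credibility intervals of its levels overlapped. The chromaffin and adrenal cortex genes, whose tissue borders the kidney and expresses Adm strongly in the adult, were low. None of 9 was detected, against 59.0% of protein-coding genes, and they summed to 4.31 and 2.36 TPM. Cyp17a1 had 0 counts in both libraries, but the list was not without reads. Pnmt had 1.75 and 0.63 TPM from 36 and 15 counts. Star had 0.92 and 0.97 TPM from 48 and 59 counts.

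The receptor of adrenomedullin was far more abundant than the ligand. Calcrl, the receptor core, had 64.9 and 32.5 TPM and exceeded Adm by 19.6-fold and 8.52-fold. Ramp2, the partner that makes Calcrl an adrenomedullin receptor, had 199 and 211 TPM, and Ramp3, the alternative partner, had 8.18 and 7.95 TPM. Ramp2 thus exceeded Ramp3 by 24.4-fold and 26.6-fold in both libraries, while Ramp1, the partner that makes a CGRP receptor, was not detected at 0.96 and 0.85 TPM. The related ligands Adm2, Calca and Calcb were under 1 TPM in both libraries, at 0.43 and 0.42 TPM, 0.12 and 0.81 TPM, and 0.17 and 0 TPM, the last listed at 0 in replicate 2. Pam, which encodes the amidating enzyme that completes the peptide, had 25.2 and 21.2 TPM, and Mme, which encodes a protease that degrades it, had 27.6 and 13.1 TPM. The receptors Ackr3, which removes adrenomedullin, and Gpr182 had 44.4 and 37.8 TPM and 1.56 and 2.76 TPM. Markers of endothelium, where Calcrl and Ramp2 are known to act, were all detected, against 59.0% of protein-coding genes. These markers summed to 472 and 450 TPM over 9 genes. Their part in the receptor levels was not tested.

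RNA of most HIF target genes was present. Of 39 listed targets, 38 were detected in both libraries (97.4%), against 59.0% of the 21474 protein-coding genes, and 9 of the 10 genes of the set were. The list had a median level of 16.5 TPM over its members' means, close to the median of 18.3 TPM of detected protein-coding genes. The highest targets were Mif at 1823 and 1879 TPM, Eno1 at 1369 and 1193 TPM, Ldha at 1097 and 981 TPM, Aldoa at 542 and 511 TPM, and Bnip3l at 426 and 475 TPM. Eno1, Ldha and Aldoa encode enzymes of glycolysis that most cells use, and of these 5 only Aldoa had whole counts in both libraries, so reads of the other 4 were shared with other features. At the other end, Edn1, which encodes the vasoconstrictor endothelin, had 1.51 and 1.42 TPM, Stc2 had 1.03 and 1.22 TPM, and Car9, often used as a marker of hypoxia, was not detected at 0.63 and 0.95 TPM. Vegfa, the vessel growth signal of the list, had 5.97 and 7.69 TPM and exceeded Adm by 1.80-fold and 2.02-fold. Egln3 exceeded Adm by 3.43-fold and 2.65-fold. Set beside the listed targets, Egln3, with a mean of 10.75 TPM, lay under their median of 16.5 TPM. Adm was low and Epo last. None of these levels has an oxygen-controlled sample beside it, so they are levels in this tissue and not responses.

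**Figure D2:**
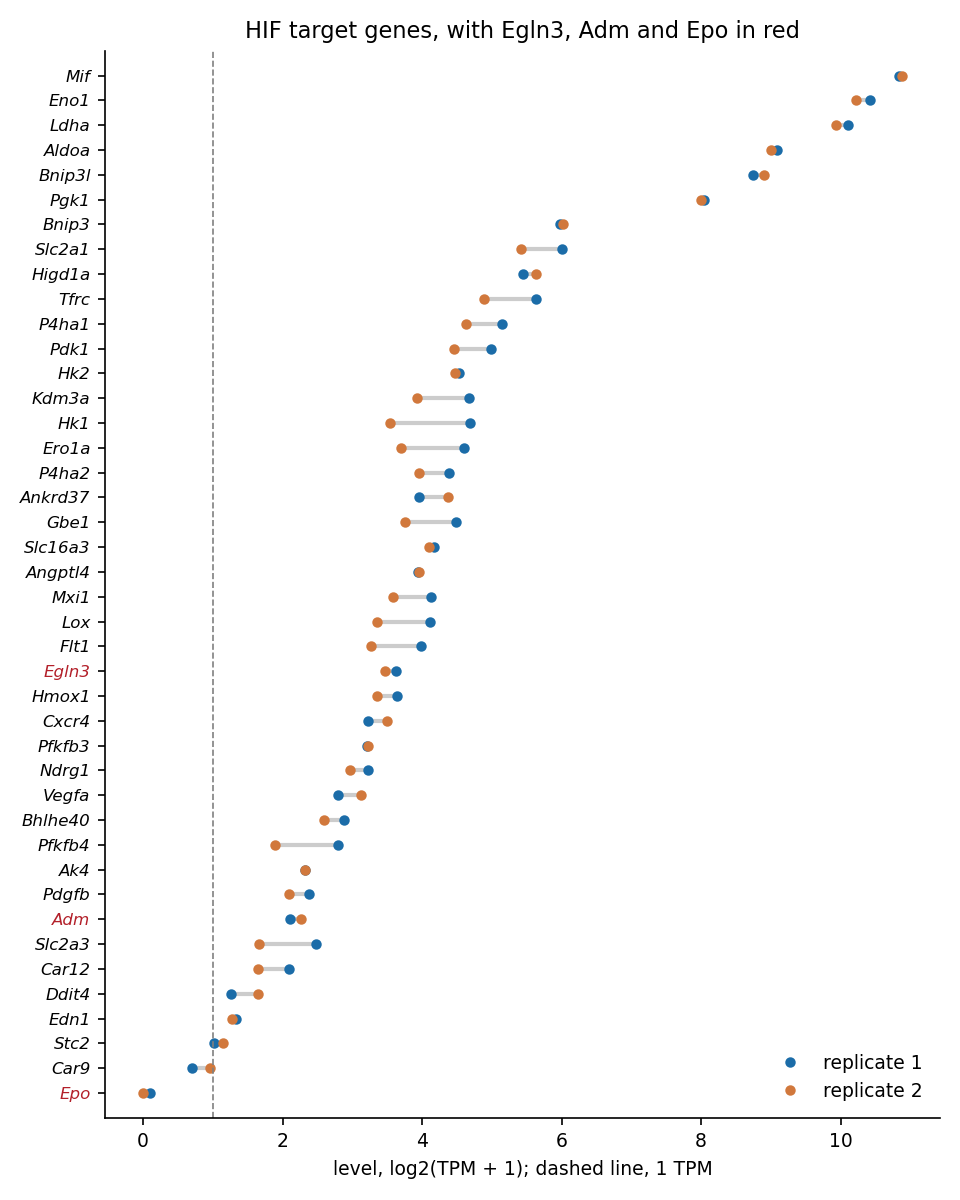
Levels of 39 listed HIF target genes together with Egln3, Adm and Epo (red names), as log2(TPM + 1), with 1 point for each replicate and a grey line between them. Mif, Eno1 and Ldha are at the top, Egln3 is below the middle, Adm is low, and Car9 and Epo lie under the dashed line at 1 TPM.

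Of 20 further regulators of HIF, 19 were detected, against 59.0% of protein-coding genes, and their median level was 34.7 TPM, against 18.3 TPM over detected protein-coding genes. The highest were the chaperone genes Hsp90ab1 at 1468 and 1158 TPM and Hsp90aa1 at 824 and 991 TPM, followed by Rack1, a scaffold gene that also serves the ribosome, at 787 and 905 TPM, and by Elob and Eloc. Cited2, which competes with HIF alpha for its coactivators, had 62.0 and 54.4 TPM, while the coactivator genes Crebbp and Ep300 had 36.1 and 25.5 TPM and 20.9 and 15.7 TPM. The lowest were P4htm at 5.87 and 5.81 TPM, Siah2 at 4.35 and 3.48 TPM, and Npas1, which was not detected at 0.03 and 0.09 TPM.

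Turning to transcripts, 2 forms supplied most of Hif1a, and they begin at different first exons. Hif1a-201, with a start at chr12:73907904, had 55.55 TPM in replicate 1 and 23.81 TPM in replicate 2, or 61.9% and 48.8% of the gene. Hif1a-202, with a start 6529 nt upstream, had 27.08 and 17.68 TPM, or 30.2% and 36.3%. The upstream start supplied 32.5% and 42.4% of the TPM of both starts (37.5% ± 6.99, SD, n = 2). The forms share 13 of their 15 exons, and their coding sequences are 2508 and 2430 nt long. They differ in the coding part of the first exon of Hif1a-201, where its reading frame opens, and in an extension of a later exon by 42 nt that Hif1a-202 lacks. In Hif1a-202 the reading frame opens in the second exon, at chr12:73926558. These stretches, on GRCm38 from GENCODE release M21, are printed because they hold nearly all the coding sequence that separates the forms, and capitals mark the start codon.
Hif1a-201 first coding stretch, chr12:73908290-73908324, plus strand: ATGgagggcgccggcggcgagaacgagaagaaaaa
Hif1a-201 exon extension, chr12:73941688-73941729, plus strand: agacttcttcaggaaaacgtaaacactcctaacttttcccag
Hif1a-204, annotated as a retained intron, had 4.67 and 5.85 TPM, and Hif1a-205, a short form without a reading frame, had 1.86 and 1.20 TPM. The shares come from reads assigned by a model, and most exons are common to both main forms.

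**Figure D3:**
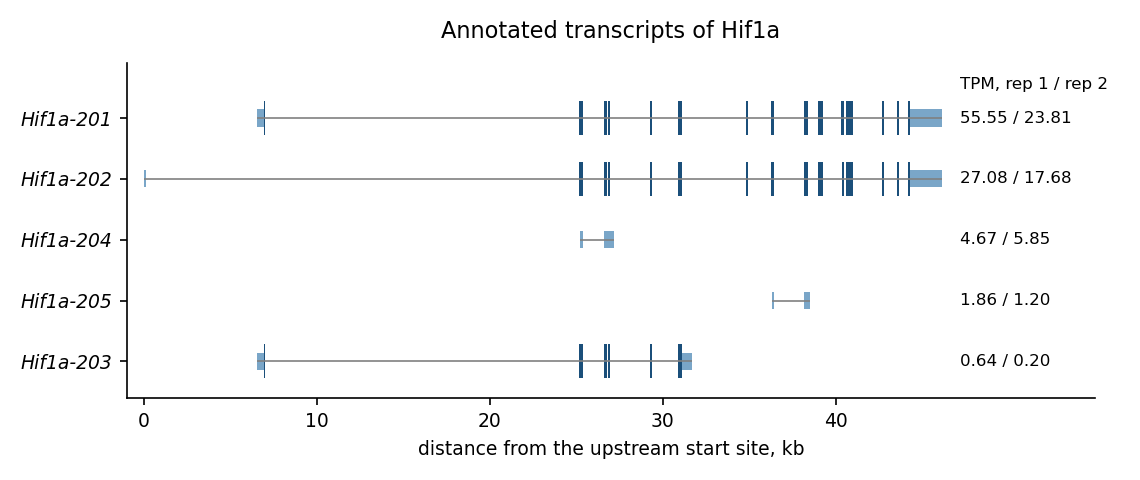
Map of the annotated Hif1a transcripts against distance from the upstream start site in kb, drawn to scale, with thick dark blocks for coding exons, thinner light blocks for noncoding parts and the TPM of replicates 1 and 2 at the right. Hif1a-201 and Hif1a-202 begin 6529 nt apart and share 13 of 15 exons.

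Hif3a was mostly Hif3a-202, at 11.59 and 7.65 TPM or 77.0% and 74.8% of the gene. Hif3a-201 had 2.04 and 1.74 TPM, or 13.6% and 17.0%. It begins at another first exon and ends with 232 nt of the last exon, against 4459 nt in Hif3a-202. The choice among Hif3a forms differed little between the libraries, by under 4 percentage points for each of these 2.

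Arnt differed more in its forms than any other gene of the set. By maximum likelihood, Arnt-202 led in both libraries with 18.02 and 4.03 TPM, or 65.2% and 34.8% of the gene. Arnt-205 had 2.13 and 2.92 TPM, or 7.73% and 25.2%. In replicate 2 the lead was not resolved. The credibility intervals there were 2.14 to 5.00 TPM for Arnt-202 and 1.74 to 4.60 TPM for Arnt-205. Their posterior mean shares in replicate 2 were 29.8% and 25.5%. The retained-intron forms Arnt-207 and Arnt-210 had 1.85 and 1.51 TPM and 1.65 and 1.06 TPM. All such forms together took 14.9% of Arnt TPM in replicate 1 and 32.1% in replicate 2. Their summed TPM was not higher in replicate 2, at 4.12 and 3.72, whereas the protein-coding forms summed to 23.5 and 7.88 TPM. The part of transcript length in these shares was not tested. The higher Arnt level of replicate 1 was thus carried mainly by Arnt-202. The intervals of Arnt-205 overlapped between libraries, at 0.73 to 3.42 and 1.74 to 4.60 TPM. An annotated exon of 45 nt is held by the coding form Arnt-203 and by retained-intron forms, which together had 3.25 TPM in replicate 1 and 1.22 TPM in replicate 2, or 11.8% and 10.5% of the gene. Arnt-203 itself had 1.60 TPM in replicate 1 and was listed at 0 in replicate 2, against 20.15 and 6.95 TPM in Arnt-202 and Arnt-205, the full-length coding forms without the exon. Its sequence is printed because it is the coding difference between Arnt-203 and Arnt-202, whereas Arnt-205 differs from Arnt-202 by a further 48 nt elsewhere in the coding sequence.
Arnt 45-nt exon, chr3:95466793-95466837, plus strand: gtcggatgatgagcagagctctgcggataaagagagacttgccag

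Vhl and Egln2 had a single main form: Vhl-201 took 100% of Vhl in both libraries, and the leading form of Egln2 took 96.6% and 95.4%. For Adm the forms were not resolved. Adm-201 took 93.6% and 100% by maximum likelihood, but 47.8% and 58.6% by the deposited posterior mean estimates, which gave 40.5% and 36.7% to a transcript with no match in release M21. Epas1, Egln1 and Egln3 have 1 annotated transcript each in the tables. Over the 6 detected genes with several annotated transcripts, the leading form by maximum likelihood was the same in both libraries. Its median share was 85.3% and 85.1%, with no gene near these values. They lie midway between Hif3a at 77.0% and Adm at 93.6% in replicate 1, and Hif3a at 74.8% and Egln2 at 95.4% in replicate 2. The near-equal medians do not show the shifts of Hif1a and Arnt.

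**Figure D4:**
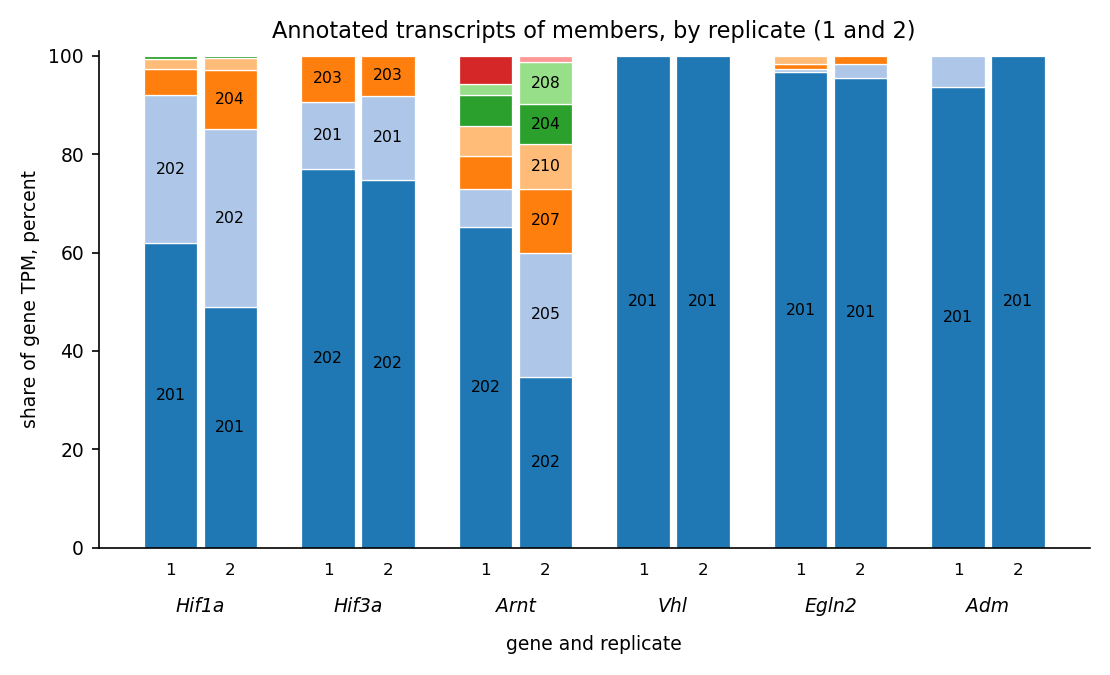
Share of each gene's TPM, in percent, taken by its annotated transcripts in replicates 1 and 2, for the 6 detected genes with several transcripts, with transcript numbers printed on the larger parts and colours running in order of mean share within a gene. By these maximum likelihood shares, Vhl, Egln2 and Adm show 1 main form, Hif1a shows 2, and the leading form of Arnt takes 65.2% in replicate 1 and 34.8% in replicate 2.

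By TPM, most of the set was higher in replicate 1, and 5 genes (Hif1a, Epas1, Hif3a, Arnt and Vhl) were so under each of 5 scalings. The scalings use the same libraries and are not independent checks. The share of all genes higher in replicate 1 under every scaling was not computed. Under TMM scaling these were the only detected genes of the set on that side, a share near that of all genes, as given below. On the scale of log2(TPM + 1), replicate 1 over replicate 2, the difference was 1.18 for Arnt, 0.87 for Hif1a, 0.70 for Vhl, 0.58 for Epas1 and 0.51 for Hif3a. It was 0.25 for Egln2, 0.16 for Egln3, 0.05 for Egln1 and -0.16 for Adm. Of the 9 detected genes, 8 were higher in replicate 1, against a background of 73.0% of the 15075 genes with a mean of 1 TPM or more. The median difference over the 9 was 0.51, against 0.26 over all those genes. Scaling shifts all genes together: with FPKM, 6 of 9 were higher in replicate 1 against 55.1% of all genes, and with TMM-scaled counts 5 of 9 against 50%. The genes that changed side were Egln1 and Egln3 under FPKM and both count scalings, and Egln2 under TMM alone, while Adm was higher in replicate 2 under all 5.

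That difference between libraries moved with transcript length. The median over all genes was -0.15 below 1000 nt, 0.10 from 1000 to 2000 nt, 0.34 from 2000 to 3000 nt and 0.50 from 3000 to 4000 nt, and 0.57 and 0.52 in the 2 longer ranges. Set against genes of their own length range, 4 of the 9 were above the median and 5 below, and the median of their differences from it was -0.01. Epas1 and Hif3a, at 5309 and 5231 nt, sat at the level of other long genes, and 4 of the 9 lay between the quartiles of their range. Arnt, Hif1a and Vhl lay above, and Egln1 lay furthest below, at -0.46 from its range's median. Only Arnt was past 2-fold in TPM + 1 among the 8 genes with 5 TPM or more in the higher library, against a background of 5.56% of 11480 genes in either direction and 4.56% with replicate 1 higher. At 1.5-fold, Hif1a and Vhl joined it, 3 of 8, against 27.1% of the same genes.

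**Figure D5:**
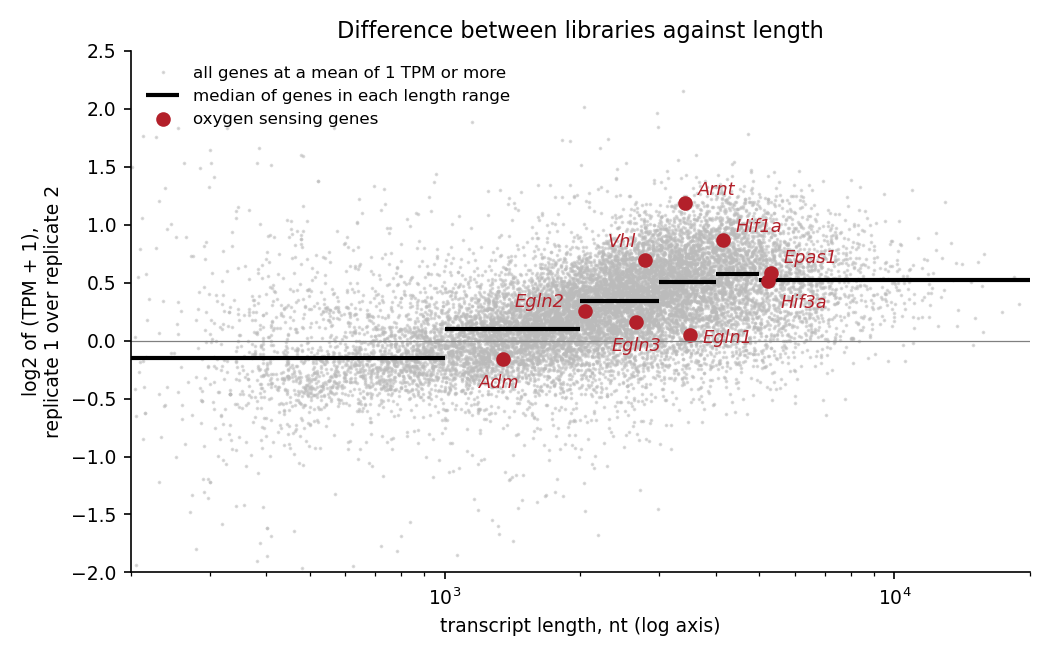
Difference between libraries, as log2 of TPM + 1 in replicate 1 over replicate 2, against transcript length in nt on a log axis, for 15075 genes with a mean of 1 TPM or more (grey, of which 359 fall outside the axes), the median of each length range (black) and the 9 detected oxygen sensing genes (red). The black medians run from -0.15 for the shortest genes to 0.57, Arnt lies well above its range and Egln1 below it.

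The deposited credibility intervals, which describe the estimate within 1 library, did not overlap between libraries for Hif1a, Epas1, Hif3a, Arnt, Vhl and Egln2. They overlapped for Egln1, Egln3 and Adm. That is 6 of the 9 detected genes, against a background of 54.4% of the 15075 genes, so intervals within a library are narrower than the spread between libraries for more genes than not. Hif1a lies under the opposite-strand gene Gm15283, and both were given parts of the same reads, with 7367.41 and 7.59 counts summing to a whole 7375 in replicate 1. The strand setting of the counting is not stated in the labels or headers, and without it reads of such a pair cannot be assigned with certainty.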

How the data were processed

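Total RNA of embryonic mouse kidney was sequenced in 2 libraries of 1 group, each with tables of genes and of transcripts. Per the labels, extraction used a mirVana kit, and a Smart-seq protocol is linked. The tables are on mm10 with GENCODE annotation M4, per the text deposited beside them. Aligner and quantification tool: not given in the sources used here. Per the file headers, the columns are those that RSEM writes. The deposited expected counts are estimated reads per feature and need not be whole. The deposited TPM and posterior mean TPM are scaled, spike-ins included, so that every library has an equal sum. The deposited FPKM values are scaled to effective length and depth. The deposited credibility interval bounds, a signal on the TPM scale, have no stated level. The deposited isoform percent is each transcript's share of its gene's TPM.

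Symbols, coordinates and exons came from GENCODE M21 on GRCm38, which is mm10. Of 43346 gene IDs, 42462 matched. Of 36 transcripts of the 10 genes, 35 matched, and 4 differed in length between releases (Epas1-201, Hif3a-203, Egln1-201 and Adm-201). Promoters came from RefSeq on GRCm38.p6. Ero1a was matched as Ero1l.

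The genes and lists were chosen with earlier results of these data known. Named genes were the 10 of the set, their transcripts at 1 TPM or more in both libraries, up to 5 highest and 3 lowest genes of each list, and all genes of the adrenomedullin and erythropoietin lists. Of the marker lists, only genes that touch a result are named. Hif1an, Arnt2, Cul2, Rbx1, Cited2, Crebbp, Ep300, Vegfa, Gnb2 and Gm15283 fall outside the rule and were named for their role or position after their values were seen. 1 gene of the HIF target list is not reported here and is left out of its counts. Detection was 1 TPM in both libraries. Differences are log2 ratios with a pseudocount of 1, which understates those of low genes. No test was possible with 1 group. Expected counts were also scaled, with TMM factors of edgeR 4.0.16 and size factors of DESeq2 1.42.0, run in R 4.3.3. The factors were estimated from rounded counts and applied to the unrounded ones. Other steps ran in Python 3.11.15 with pandas 2.3.3, numpy 2.4.6 and scipy 1.17.1, and figures were drawn with matplotlib 3.10.9. The ratio calculation was tested on simulated data. Reads without molecular identifiers are not independent molecules, so limits and Poisson bounds at 95% cover counting error only.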

Additional observations from a re-analysis of the deposited data

How the results depend on the processing

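The number of detected genes of the set (9 to 9 leaving out either replicate) and of HIF targets (38 to 38, and 35 to 39 under other detection levels or posterior mean TPM) kept within 1.5 times of the reported counts under the alternatives run. Leaving out a replicate gave 7.57 to 8.87 for Hif1a over Epas1, 23.6% to 26.0% for the Egln1 share and 85.1% to 85.3% for the median leading transcript share. That median does not show single genes, such as Arnt, whose leading share was 65.2% in replicate 1 and 34.8% in replicate 2. The median log2 difference of the set, 0.51, was 0.40 with a pseudocount of 5, 0.29 with FPKM, 0.26 with TMM-scaled counts and 0.29 with DESeq2 size factors. The median over all genes moved with these settings too, to 0.17, 0.05, -0.00 and 0.03, and the set stayed 0.22 to 0.36 above it under the pseudocounts, scalings, estimates and filter run. In 2 alternatives chosen after seeing the data, it was -0.0058 when centred on genes of like length and 0.38 without Arnt, against 0.26 over all genes. At 1.5-fold, 3 genes were apart (Hif1a, Arnt and Vhl), against 27.1% of all genes. With posterior mean isoform percent, the median leading share was 66.5%, and Adm-201 held 47.8% and 58.6% of Adm. Posterior mean TPM put Epo at 0.25 TPM, still under 1 TPM. No paired analysis was possible because there is only 1 group.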
